A study of Mus musculus with 185 samples.

Results

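Rps4l, Gm7666, Gm43752, Tmem181b-ps and Znf41-ps are 5 of the 45661 genes in the table of read counts of single epidermal Langerhans cells (LCs), and all 5 are annotated as pseudogenes. They were chosen by the difference of their reads between LCs of host origin (eLCs) and LCs derived from the transplanted marrow (moLCs), so their levels in the origins are given as a description and not as a finding. Each was described by its reads per cell, by the share of cells with a read, by the spread of its reads over cells, and by its co-detection with the others, for each origin and plate. The cells came from bone marrow chimeras in which CD45.1 B6 mice carrying Cd207DTR, in which the Cd207 locus drives a receptor for diphtheria toxin (DT), were irradiated with 12 Gy and given CD45.2 wild-type B6 marrow. All of these chimeras later received DT at 5 ng per g of mouse, and LCs were sorted from the epidermis 2 months after it as Lineage-CD11c+CD11b+CD24+MHCII+CD326+ cells. The congenic marker of each sorted cell gave its origin. The eLCs are thus host cells that carry the receptor and were left after a low dose of DT, whereas moLCs carry the wild-type Cd207 and the donor CD45 allele. Origin and the alleles and tissue history that go with it cannot be told apart in this design. The sources used here give no age for the mice, and the labels name no mouse for any cell. Each origin was therefore treated as 1 sample, with no test and no p-value between origins.

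A processed pseudogene is a copy of a spliced messenger RNA that was written back into the genome, so it lacks the introns of its parent gene. An unprocessed pseudogene is a duplicated stretch of a gene, with its introns. Where a copy is still nearly identical to its parent, a short sequencing read from one can be assigned to the other, and a pseudogene can gain reads without being transcribed. A copy that has drifted in sequence is told apart more readily.

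After sorting, 182 cells had at most 5% of reads on mitochondrial genes, with 67 moLCs and 29 eLCs on plate 1 and 36 moLCs and 50 eLCs on plate 2. They had 432614 to 4525429 reads on genes, with medians of 2948820 in moLCs and 2779080 in eLCs, and a median of 4026 and 4488 genes with a read. All 8 LC markers listed (Cd207, Epcam, Cd74, H2-Ab1, Cd24a, Itgax, Csf1r and Mfge8) were read in both origins, each in at least 74.8% of the cells. The summed levels of keratinocyte, T cell, monocyte, dermal DC1 and melanocyte markers had a median of 0 in each origin, as counts per 1000000 reads (CPM). Over all cells of an origin, the 6 keratinocyte markers summed to 24.5 CPM in moLCs (0 to 542 CPM per cell) and 4.83 CPM in eLCs (0 to 95.3 CPM), with Krt1 and Dsp at 0 in both. The 4 dermal DC1 markers summed to 15.9 CPM in moLCs (0 to 333 CPM) and 31.6 CPM in eLCs (0 to 304 CPM), with Tlr3 at 0 in both, and the part of such cells in the ratios was not tested. Numbers of moLCs and eLCs below are names of cells only.

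The sequences show how far each pseudogene can be told from the protein-coding gene it resembles most, which is called its parent here and was found with blastn among the GENCODE M21 transcripts (GRCm38). Each window has 120 bases of 1 exon of the pseudogene, beside the coding part of the parent where they differ most, written 5′ to 3′ on the strand of the transcript. Capitals mark the bases that differ within a pair. The window of Rps4l lies at chr6:148355194-148355313 (plus strand), differs from Rps4x at 35 bases, and is shown as an example of a copy with many bases of its own.
Rps4l: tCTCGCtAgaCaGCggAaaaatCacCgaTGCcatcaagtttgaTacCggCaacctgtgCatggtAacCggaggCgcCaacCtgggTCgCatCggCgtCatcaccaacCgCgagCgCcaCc
Rps4x: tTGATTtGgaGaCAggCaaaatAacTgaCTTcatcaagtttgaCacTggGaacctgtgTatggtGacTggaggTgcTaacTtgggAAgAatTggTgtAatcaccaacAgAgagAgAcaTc
The window of Gm7666 lies at chr15:6654094-6654213 (plus strand) and holds the single base by which the whole pseudogene differs from Phb, G231A, with the base of Gm7666 first, the position counted from 1 at its 5′ end, and the base of Phb last.
Gm7666: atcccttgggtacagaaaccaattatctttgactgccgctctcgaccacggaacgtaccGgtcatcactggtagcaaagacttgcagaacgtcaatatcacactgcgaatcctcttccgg
Phb: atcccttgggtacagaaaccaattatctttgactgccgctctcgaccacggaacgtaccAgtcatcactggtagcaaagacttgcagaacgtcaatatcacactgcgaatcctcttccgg
The window of Gm43752 lies at chr5:125435289-125435408 (plus strand) and differs from Gapdh at 7 bases.
Gm43752: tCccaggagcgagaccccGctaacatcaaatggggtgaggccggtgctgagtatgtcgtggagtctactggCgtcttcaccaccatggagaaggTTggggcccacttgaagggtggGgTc
Gapdh: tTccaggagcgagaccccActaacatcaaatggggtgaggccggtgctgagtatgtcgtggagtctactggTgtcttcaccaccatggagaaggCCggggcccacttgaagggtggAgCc
The window of Znf41-ps lies at chr4:145827839-145827958 (plus strand) and differs from Zfp991 at 2 bases.
Znf41-ps: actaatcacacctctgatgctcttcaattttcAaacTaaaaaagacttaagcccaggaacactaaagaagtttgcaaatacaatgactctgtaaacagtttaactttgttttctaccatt
Zfp991: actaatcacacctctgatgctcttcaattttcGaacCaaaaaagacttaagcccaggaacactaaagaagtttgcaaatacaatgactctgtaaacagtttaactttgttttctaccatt
For Tmem181b-ps, the window at chr17:6448789-6448908 (minus strand) is identical to Tmem181a in all 120 bases, and it is shown once for that reason.
Tmem181b-ps: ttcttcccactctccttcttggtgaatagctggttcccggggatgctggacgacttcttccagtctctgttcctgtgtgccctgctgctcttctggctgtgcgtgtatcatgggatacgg
Over the whole transcripts, the pseudogenes ranged widely in how much of their sequence is their own. Rps4l is 79.7% identical to Rps4x over 814 aligned columns, with 162 mismatches, and 811 of its 869 stretches of 75 bases, the length of a read in this study, occur in no other gene. The closest sequence to Rps4l is another pseudogene, Rps4l-ps, at 93.3% identity. Gm43752 is 91.5% identical to Gapdh, 605 of its 623 stretches are its own, and its last 121 bases lie beyond the alignment. Gm7666 is 99.9% identical to Phb over its 819 bases, and only 73 of its 745 stretches, or 9.80%, occur in no other gene. Znf41-ps is 99.5% identical to Zfp991 and 99.3% identical to Zfp992, and 83.03% of its stretches occur in other genes. Tmem181b-ps is 98.8% identical to Tmem181a where they align, and 58.9% of its stretches are its own, between these extremes. Its second match, Dynlt1a, is 99.1% identical where they align. Of the stretches of Tmem181b-ps, 36.2% occur in Tmem181a and 41.1% in any other gene, so part of the shared sequence is not that of Tmem181a.

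A size rule gave the background for the ratios. A gene was called when 25% or more of the moLCs or of the eLCs had a read of it and its summed CPM differed by 2-fold or more, with the same sign on either plate and when the plates were pooled. By this rule all 5 pseudogenes were called, 4 with more reads in eLCs and Gm43752 with more in moLCs, where 132 of 6522 genes (2.02%) were called in all, 1.21% of the 6522 as higher in eLCs and 0.813% as higher in moLCs. The choice of these genes used this contrast, so nothing is read from their count. The log2 ratio of summed CPM, moLCs over eLCs, was -3.52 for Rps4l, -2.17 for Tmem181b-ps, -2.05 for Znf41-ps, -1.45 for Gm7666 and 5.21 for Gm43752. The intervals given with ratios and shares are exact binomial or Clopper-Pearson intervals at 95% and cover counting error only. The table holds reads and not molecules, because the kit adds no molecular identifiers, so PCR copies count as reads. The plot of reads in each cell shows that the 5 pseudogenes reached these ratios in different ways.

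**Figure D1:**
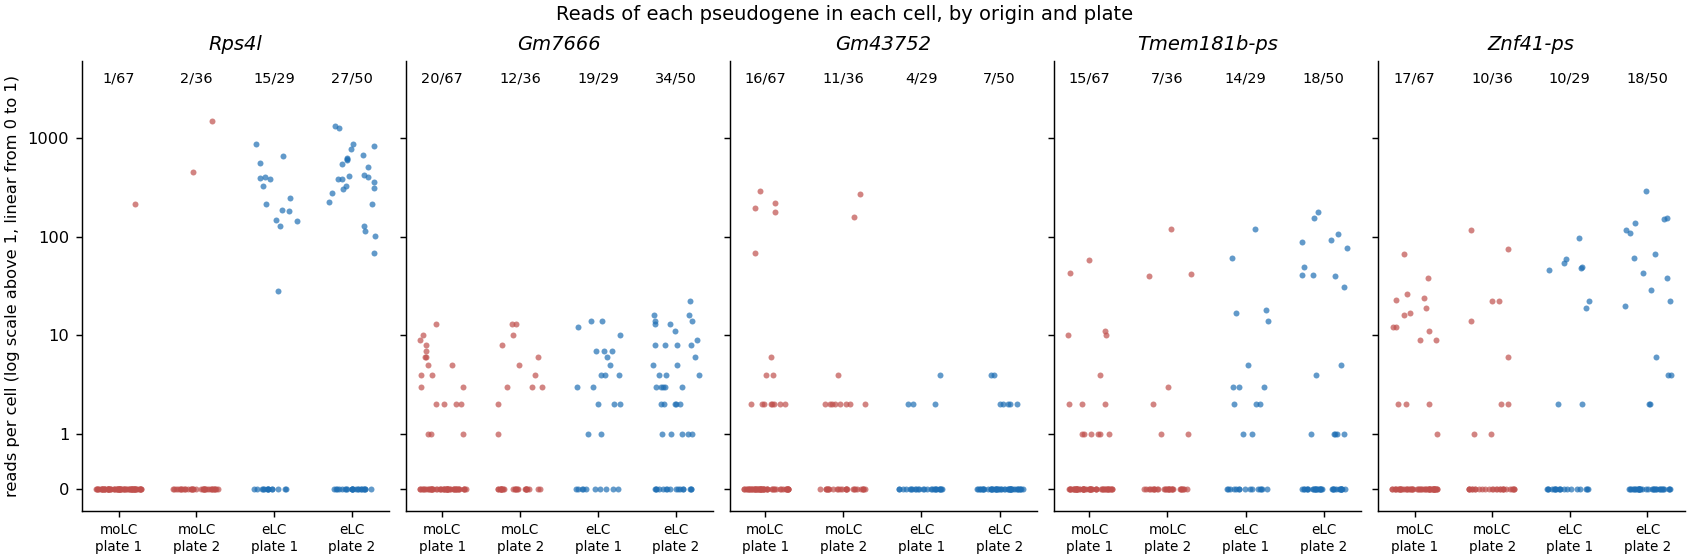
Reads of each pseudogene in each of the 182 cells, by origin and plate (y axis, linear from 0 to 1 and log above), with the number of cells with a read out of all cells above each group. Rps4l was at 0 or at 28 reads and more, Gm7666 never passed 22 reads, and Gm43752 passed 6 reads in 7 moLCs alone.

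Rps4l is a retrocopy of a gene of ribosomal protein S4, a protein of the small subunit of the ribosome. It lies at chr6:148354656-148355598 (plus strand), within the span of Tmtc1 on the other strand, and is annotated as a transcribed processed pseudogene with no intron. A read of Rps4l was present in 42 of 79 eLCs (53.2%, 41.6 to 64.5%), but in no more than 3 moLCs (2.91%, 0.605 to 8.28%). The 42 eLCs had 28 to 1324 reads of Rps4l with a median of 382, and 40 of them had at least 100. No cell of either origin had between 1 and 27 reads. The eLCs thus formed a group at 0 and a group well above it, and the groups of origin overlapped in both. Plates gave like shares of eLCs, 51.7% on plate 1 and 54% on plate 2, with medians of 246 and 400 reads in the cells that had any.

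The summed level of Rps4l was 82.04 CPM in eLCs against 7.16 CPM in moLCs, and the log2 ratio was -3.52 (-3.58 to -3.45). Within plate 1 the ratio was -5.68 and within plate 2 it was -2.43. The plate 1 value rests on moLC 57, without which no moLC of that plate had a read and the ratio was -11.79 or lower, with 3 reads put in place of 0. All reads of moLCs came from 3 cells, and moLC 80 alone held 69.2% of them. Without moLC 80 the pooled ratio was -5.20, and that within plate 2 was -4.49. Sarle's bimodality coefficient of log2(CPM + 1), which is higher when values lie at separate levels but also when a few cells stand far out, was 0.812 in eLCs. Among 666 other genes read in a share of eLCs within 5 percentage points of that of Rps4l, the median of this coefficient was 0.768, and 96 genes (14.4%) were at or above Rps4l. These genes were picked for a like share, so all of them were absent from a part of the eLCs by choice. The level of Rps4l in the cells that had any was high among them, but Rps4l was chosen for more reads in eLCs. Its ranks among these genes are therefore a description and not a finding. Only 40 of the 666 genes (6.01%) had 28 or more reads in every eLC that had any, and 15 (2.25%) had a median as high as 382.

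The 3 moLCs with Rps4l differed from each other. They had 212 reads (moLC 57, plate 1), 1488 reads (moLC 80, plate 2) and 450 reads (moLC 99, plate 2). Cd207, Timd4, Edil3, Hbegf and Clec4f, which were used as readouts of origin, were set beside them. Of these genes, Timd4 and Hbegf did not pass the size rule, with log2 ratios of -0.84 and 0.21 on plate 2. Cd207, which encodes the C-type lectin langerin, was at 22211 CPM in moLC 57 and 8818 CPM in moLC 99, above all 79 eLCs. In moLC 80 it was at 2555 CPM, above 57 of the eLCs and above 4 of the moLCs. This cell also had 5266 reads of Timd4, which encodes a phosphatidylserine receptor, 462 of Edil3 and 10 of Hbegf. Timd4 and Hbegf had no read in the other 2 cells, and Edil3 had 288 reads in moLC 99 and none in moLC 57. Clec4f was at 0 in all 3. Whether moLC 80 was sorted under the right origin was not tested.

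Within eLCs, the cells with and without Rps4l overlapped in these genes. The median of Cd207 was 1461 CPM (261 to 6064 CPM) in the 42 eLCs with Rps4l and 1418 CPM (76.5 to 7767 CPM) in the 37 without it. Hbegf was read in 90.5% and 83.8% of them, Timd4 in 81% and 70.3%, and Edil3 in 78.6% and 81.1%. The eLCs with Rps4l had a median of 4644.5 genes with a read, and those without it had 4088. Their totals went the other way, with medians of 2593150 and 2908780 reads. The part of RNA content in the detection of Rps4l was not tested.

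Rps4x, which encodes the ribosomal protein itself, was read in all 79 eLCs and in all but 2 moLCs. It stood at 354 CPM in eLCs, close to the 311 CPM of moLCs, with log2 ratios of -0.19 with plates pooled, -0.12 on plate 1 and 0.00 on plate 2. There were 2.30 reads of Rps4l per 100 reads of Rps4x in moLCs (2.21 to 2.40) and 23.2 in eLCs (22.8 to 23.6). In moLCs this was 0.410 on plate 1 and 4.66 on plate 2, and 0.725 over both plates without moLC 80, a value added after seeing the data. In eLCs, the CPM of Rps4l and of Rps4x had a Spearman correlation of -0.01 across the 79 cells, whose depths differ. The near copy Rps4l-ps had 20 reads in eLCs, in 8 cells, and 4 in moLCs, in 1 cell. Tmtc1, in whose span Rps4l lies, had a read in 0 of 182 cells, which allows a share with a read of up to 3.52% in moLCs and 4.56% in eLCs.

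Of the 78 cytosolic ribosomal protein genes, none passed the size rule, where 2.02% of all 6522 genes did. Their median log2 ratio was -0.06, and the median over all 6522 genes was -0.10. The 9 nearest read genes of Rps4l, at 142 kb and farther, had log2 ratios between -0.86 and 0.95. None of these 9 passed the rule, a count too small to set against 2.02%. Rps4l and Cd207 lie on the same chromosome, 64.7 Mb apart. The genes whose shares of cells in the 4 groups of origin and plate were most like those of Rps4l, by Euclidean distance, were Polg (9.55 percentage points away), Vps45 (24.2) and Ide (24.6). Polg, the catalytic subunit of the mitochondrial DNA polymerase, had reads in 48.1% of eLCs against 7.77% of moLCs, and its log2 ratio was -4.10. Reads of Polg and Rps4l were found together in 21 eLCs, where the product of their shares within plates gives 20.2.

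**Figure D2:**
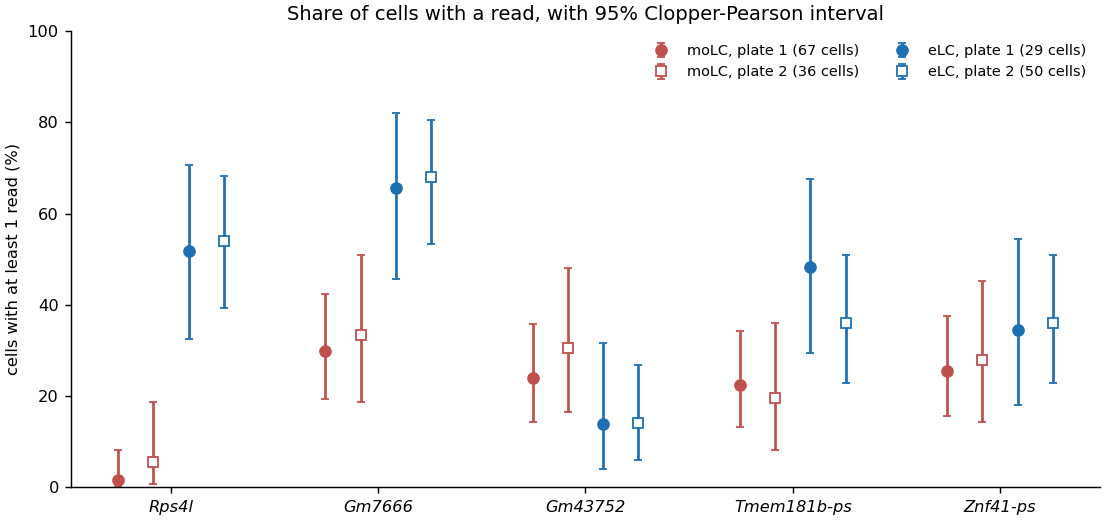
Share of cells with at least 1 read of each pseudogene (y axis, %), for moLCs and eLCs on each plate, with 95% Clopper-Pearson intervals. The shares of Rps4l in eLCs, 51.7% and 54%, lie apart from those in moLCs. The intervals of Gm43752, of Tmem181b-ps and of Znf41-ps overlap between all 4 groups.

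Gm7666 was read in more eLCs than moLCs, but at few reads per cell, and it followed Phb. Phb encodes prohibitin, a protein of the inner mitochondrial membrane. Gm7666 lies at chr15:6653923-6654741 (plus strand) and is annotated as a transcribed processed pseudogene. Reads were present in 53 of 79 eLCs (67.1%, 55.6 to 77.3%), compared with 32 moLCs (31.1%, 22.3 to 40.9%). The cells with a read had a median of 4 reads in either origin, with a highest value of 22 in eLCs and of 13 in moLCs. The 2 origins thus differed in how many cells had a read more than in how many reads those cells had. Its summed level, 1.497 CPM in eLCs, was 0.549 CPM in moLCs, with log2 ratios of -1.45 (-1.72 to -1.17) with plates pooled, -1.36 on plate 1 and -1.30 on plate 2. Its bimodality coefficient was 0.532 in eLCs, at or below that of 501 of the 551 other genes found in about as many eLCs.

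Phb was read in 59 of 79 eLCs (74.7%) and 43 moLCs (41.7%), at 40.3 and 20.2 CPM. The log2 ratio of Phb, -0.997 when pooled, -0.996 on plate 1 and -1.09 on plate 2, missed the rule because the first pair fell just short of 2-fold. Every cell with a read of Gm7666 also had reads of Phb. None of the 60 moLCs and 20 eLCs without Phb had a read of Gm7666, whereas 74.4% of the moLCs and 89.8% of the eLCs with Phb did. The Spearman correlation of the CPM of Gm7666 and Phb was 0.79 across moLCs and 0.71 across eLCs, both of which rest in part on shared zeros and depth. There were 2.72 reads of Gm7666 per 100 reads of Phb in moLCs (2.32 to 3.18) and 3.72 in eLCs (3.32 to 4.15). The intervals overlapped on each plate, with 2.26 (1.82 to 2.77) and 2.90 (2.38 to 3.52) on plate 1 and 3.72 (2.89 to 4.72) and 4.31 (3.75 to 4.94) on plate 2. Whether the reads of Gm7666 were made by transcripts of Phb was not tested, because the table does not keep the reads. How reads that match several genes were handled, and whether strand was used, is not given in the sources used here, and both bear on the counts of Gm7666, Tmem181b-ps and Znf41-ps.

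Gm7666 also lies in Fyb, an adaptor protein gene of leukocytes, on the same strand, and 231 of its 819 bases (28.2%) are an exon of a noncoding Fyb transcript. Fyb had a log2 ratio of 0.69 with plates pooled, 0.89 on plate 1 and -0.08 on plate 2. The antisense gene Gm2245 covers 152 of its bases and had 0.07 CPM in moLCs and none in eLCs. Of the 9 nearest read neighbours of Gm7666 none passed the rule, where 2.02% of all genes did. Their log2 ratios ran from -0.42 to 0.78. The genes most like Gm7666 in their shares of cells were Wnt9a, Tbc1d20 and Glrx2, which were 9.32 to 12.3 percentage points away and of which Glrx2 passed the rule.

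**Figure D3:**
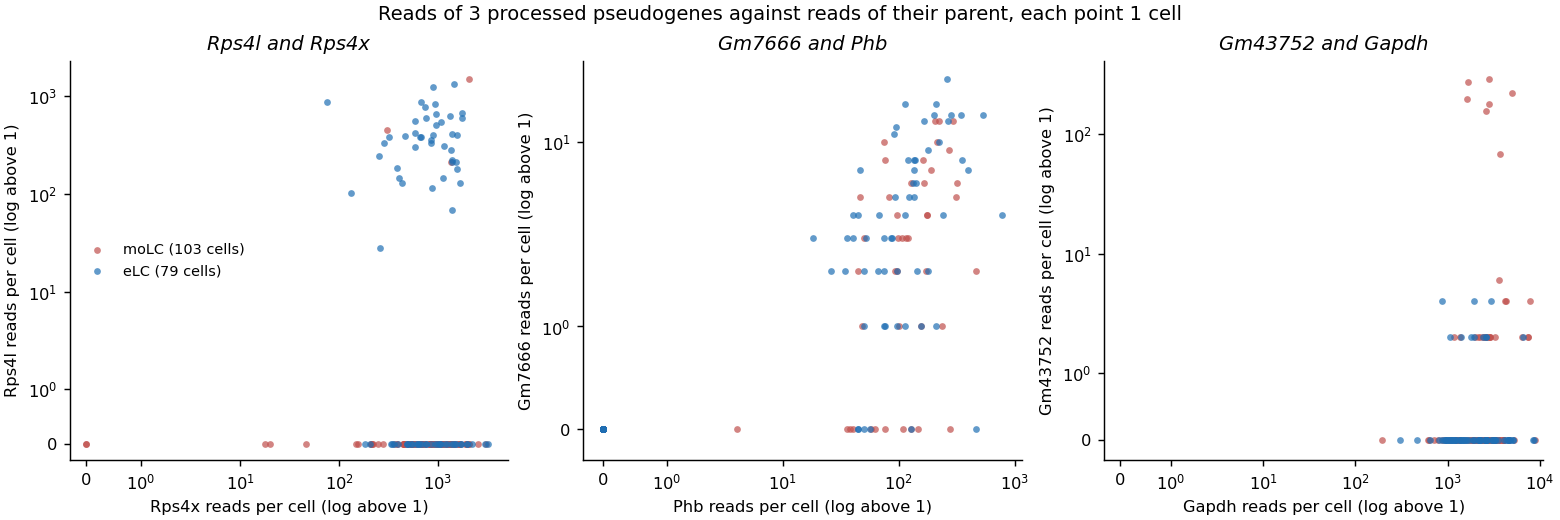
Reads of Rps4l, Gm7666 and Gm43752 in each cell (y axis) against reads of Rps4x, Phb and Gapdh in the same cell (x axis), log above 1, with moLCs in red and eLCs in blue. Gm7666 is at 0 wherever Phb is at 0, while Rps4l and Gm43752 are present or absent over the same range of their parents.

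Gm43752, a processed pseudogene at chr5:125435075-125435771 (plus strand), was the only one of the 5 with more reads in moLCs. Gapdh, its parent, encodes an enzyme of glycolysis. Reads of Gm43752 were present in 27 moLCs (26.2%, 18.04 to 35.8%) and 11 eLCs (13.9%, 7.16 to 23.5%). In the cells that had any, the median was 2 reads in both origins, with a highest value of 288 in moLCs and of 4 in eLCs. The shares overlapped in their intervals, and the difference lay in a few moLCs. The 7 moLCs with 10 or more reads (moLCs 36, 41, 60, 64 and 67 on plate 1 and moLCs 88 and 100 on plate 2) had 195, 219, 178, 288, 68, 271 and 157 reads. They held 96.5% of the 1426 reads of moLCs, where eLCs had 28 reads in all.

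Summed over cells, Gm43752 reached 4.75 CPM in moLCs against 0.129 CPM in eLCs, with log2 ratios of 5.21 (4.67 to 5.80) with plates pooled, 5.46 on plate 1 and 4.95 on plate 2. Leaving out any single cell kept the pooled ratio between 4.90 and 5.42. Within plate 2, where 2 moLCs were at 10 reads or more, it was 3.65 without moLC 88. Gapdh was read in every cell and had log2 ratios of 0.13, 0.08 and 0.09. Its median was 958 CPM (579 to 1658 CPM) in the 7 moLCs and 857 CPM (186 to 4358 CPM) in the other 96 moLCs. The 7 moLCs were therefore within the range of the others for Gapdh. They had no read of Rps4l and no read of Timd4, and their Cd207 was between 10290 and 56744 CPM, above all eLCs. The nearest read genes were Dhx37 at 0.954 kb, with a log2 ratio of 0.29, and Bri3bp at 5.80 kb, with -0.64. None of the 10 neighbours passed the rule, where 2.02% of all genes did. The highest log2 ratio was that of Gm10382 with 2.58, 4.53 within plate 1 and 0.92 within plate 2. Gm10382 had 2, 21, 483, 30 and 23 reads in the 5 moLCs of plate 1 named above and none in moLCs 88 and 100. Trmt1, Gm13092 and Ass1 had the most similar shares, 4.26 to 4.43 percentage points away, with log2 ratios of 0.44, 1.04 and 2.33.

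Tmem181b-ps is a pseudogene copy of Tmem181a, which encodes a protein with several passes through the membrane. It lies at chr17:6438524-6467022 (minus strand), carries 24 exons in its annotated transcripts, and is annotated as transcribed and unprocessed. The pseudogene was read in 32 eLCs (40.5%, 29.6 to 52.1%) and 22 moLCs (21.4%, 13.9 to 30.5%). The cells with a read had 1 to 178 reads with a median of 9.5 in eLCs, and 1 to 118 reads with a median of 2 in moLCs. Low and high values were found in both origins, with 16 eLCs (20.3%) and 8 moLCs (7.77%) at 10 reads or more. Summed levels were 5.33 CPM in eLCs and 1.18 CPM in moLCs, with log2 ratios of -2.17 (-2.35 to -2.0) with plates pooled, -1.91 on plate 1 and -1.82 on plate 2. Without the moLC of plate 2 that held 118 of the 355 reads of moLCs, the pooled ratio was -2.74. Within plate 1 it was -1.03 without eLC 10.

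Tmem181a itself stood at 28.7 CPM in eLCs and 14.8 CPM in moLCs, with log2 ratios of -0.95, -1.20 and -0.93 in all cells and within plates 1 and 2, and did not pass the rule. The pseudogene and the gene went in the same direction on both plates. Of the cells with Tmem181a, 17 of 35 moLCs and 28 of 45 eLCs had a read of Tmem181b-ps. Of those without Tmem181a, 5 of 68 moLCs and 4 of 34 eLCs had one, with 56 and 150 reads, so that part of the reads came from cells with none counted on the parent. There were 7.96 reads of Tmem181b-ps per 100 reads of Tmem181a in moLCs (7.13 to 8.88) and 18.6 in eLCs (17.4 to 19.8). On plate 1 these were 4.61 and 7.58, and on plate 2 they were 16.6 and 30.8, so the level also differed between plates. Without the moLC with 118 reads, the pooled value of moLCs was 5.32. Tmem181c-ps, the third gene of the family, had 31 reads in moLCs and 21 in eLCs and a log2 ratio of 0.10 (-0.75 to 0.97).

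In its neighbourhood, Rsph3b, a radial spoke protein gene at 437 kb, passed the size rule. It was the only 1 of the 48 neighbours of all 5 pseudogenes that did. Over all 6522 genes 2.02% passed, so 1 of 48 is near that share. The log2 ratio of Rsph3b was -1.44, with -1.68 on plate 1 and -1.60 on plate 2. Dynlt1b, a dynein light chain gene 2.23 kb from Tmem181b-ps, had -1.67 with plates pooled, -2.55 on plate 1 and -0.77 on plate 2, and did not pass. The pseudogene Dynlt1-ps1, which is not among the 48 neighbours, was called by the rule with -1.54. The shares of Psd, Dck and Dnajc12 were most like those of Tmem181b-ps, 3.76 to 4.26 percentage points away, and none of these genes passed the rule.

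Znf41-ps, an unprocessed pseudogene at chr4:145825237-145829942 (plus strand), resembles Zfp991 and Zfp992, zinc finger genes of the same chromosome. Reads of it were found in 28 eLCs (35.4%, 25 to 47%) and 27 moLCs (26.2%, 18.04 to 35.8%), so the shares differed by less than their intervals. The reads per cell differed more, with 2 to 292 reads and a median of 44.5 in the eLCs that had any, and 1 to 116 reads and a median of 12 in such moLCs. At 10 reads or more there were 21 eLCs (26.6%) and 16 moLCs (15.5%). Its summed level was 7.58 CPM in eLCs against 1.83 CPM in moLCs, with log2 ratios of -2.05 (-2.19 to -1.91) with plates pooled, -1.61 on plate 1 and -1.95 on plate 2. Within plate 2 it was -2.75 without moLC 84 and -1.60 without eLC 34.

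The parents of Znf41-ps did not share a direction. Zfp991 had log2 ratios of 0.00 with plates pooled, 1.40 on plate 1 and -0.97 on plate 2, and Zfp992 had -1.07, -1.79 and -0.28. Neither passed the rule, and of 62 genes named Zfp with a read in enough cells 1 did (1.61%), beside 2.02% of all genes. Reads of Znf41-ps were found in 11 of the 65 moLCs and 9 of the 38 eLCs that had no read of Zfp991, with 278 and 326 reads. Its 10 nearest read genes, the closest at 422 kb, had log2 ratios from -1.07 to 0.15. Scyl3, Tmub1 and Mrpl2 had almost the same shares as Znf41-ps, 1.49 to 3.15 percentage points away, with log2 ratios of -0.27, -0.49 and -0.74.

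**Figure D4:**
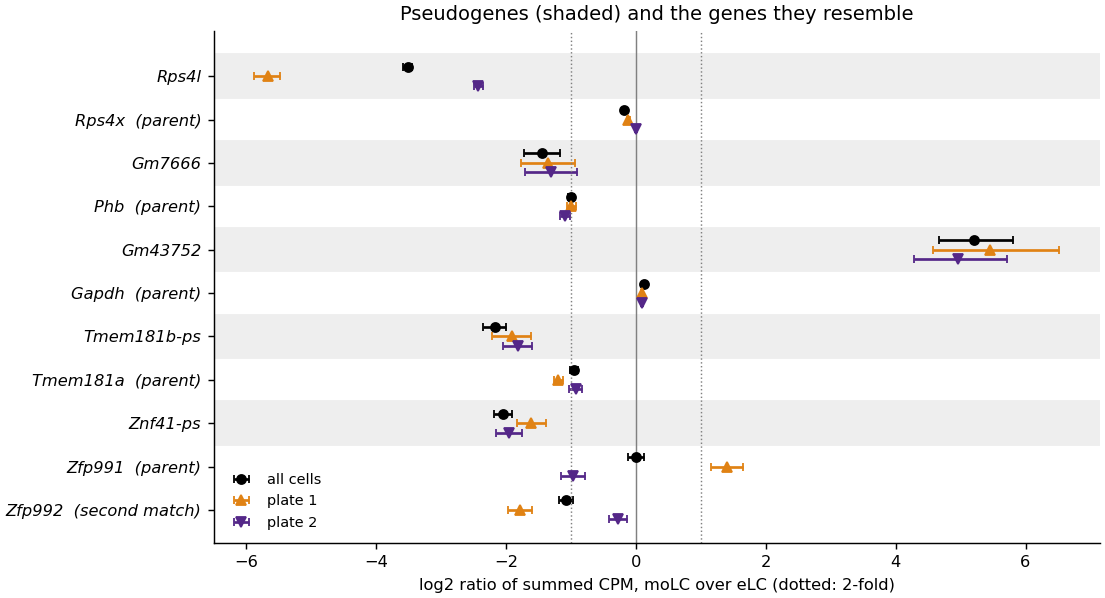
Log2 ratio of summed CPM, moLCs over eLCs (x axis), of each pseudogene (shaded) and of the genes it resembles, in all cells and within each plate, with 95% binomial intervals that cover counting error only. Rps4x and Gapdh lie near 0 while Rps4l is at -3.52 and Gm43752 at 5.21, and Phb and Tmem181a lie on the same side as their pseudogenes.

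Whole numbers of reads gave a further difference between these pseudogenes. Over all genes, 82.8% of the 766281 values above 0 were even. A read pair counted by both of its mates adds an even number. Of the values above 0, 2.22% were odd for Rps4l and 10.5% for Gm43752, whose sequences are mostly their own. For Gm7666, Tmem181b-ps and Znf41-ps, 48.2%, 57.4% and 36.4% were odd. The parents had fewer odd values, 0.980% for Phb, 11.3% for Tmem181a and 24.1% for Zfp991. The 3 pseudogenes with the largest shares of stretches found in other genes had the largest shares of odd values among the 5. Within these 3 the order differed, as Tmem181b-ps had the smallest share of such stretches (41.1%) and the largest share of odd values. Zfp991, with 75.9% of such stretches, had a smaller share of odd values than any of these 3. Among the 5 parents it had the largest share of both. The part of read assignment in the odd values and in the ratios of these 3 was not tested.

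The thinning of each cell to 2052512 reads, which left 96 moLCs and 67 eLCs, put the shares at nearly the same values. Rps4l was then read in 3.13% of moLCs and 53.7% of eLCs, Gm7666 in 30.2% and 68.7%, and Gm43752 in 27.1% and 11.9%. Tmem181b-ps was read in 18.8% and 35.8%, and Znf41-ps in 25% and 35.8%. The order of the origins was as before thinning for all 5.

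The 4 pseudogenes higher in eLCs were also counted in the same cell. They were chosen for more reads in eLCs, so a difference between origins in this count follows from the choice. In eLCs, 3 or 4 of them were read in 27 and 3 of 79 cells, 2 in 22 cells, 1 in 18 cells and none in 9 cells (11.4%). In moLCs, 42 cells had none (40.8%), 42 had 1, 15 had 2, 4 had 3 and none had all 4. On plates 1 and 2, none of the 4 was read in 13.8% and 10% of eLCs and in 43.3% and 36.1% of moLCs. Within an origin, the pairs were compared with the product of their shares. In eLCs, Rps4l and Gm7666 were both read in 31 cells, where the product of the shares within plates gives 28.2. Rps4l was found with Tmem181b-ps in 18 cells against 17, and with Znf41-ps in 15 against 14.9. The plates went opposite ways in both pairs. With Tmem181b-ps it was 6 against 7.24 on plate 1 and 12 against 9.72 on plate 2. With Znf41-ps it was 8 against 5.17 on plate 1 and 7 against 9.72 on plate 2. Gm7666 was found with Tmem181b-ps in 26 eLCs against 21.4, and with Znf41-ps in 18 against 18.8. Tmem181b-ps and Znf41-ps were together in 13 eLCs against 11.3, and in 9 moLCs against 5.75, the widest gap of these pairs in moLCs. Over these 6 pairs, the joint detections were 1.08 times the product of shares in eLCs (121 against 112) and 1.16 times in moLCs (27 against 23.4). Gm43752 was read with Rps4l in 6 eLCs, where the product of the shares gives 5.8. Gm7666 and Phb were together in 53 eLCs against 39.6, and in 32 moLCs against 13.4.

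**Figure D5:**
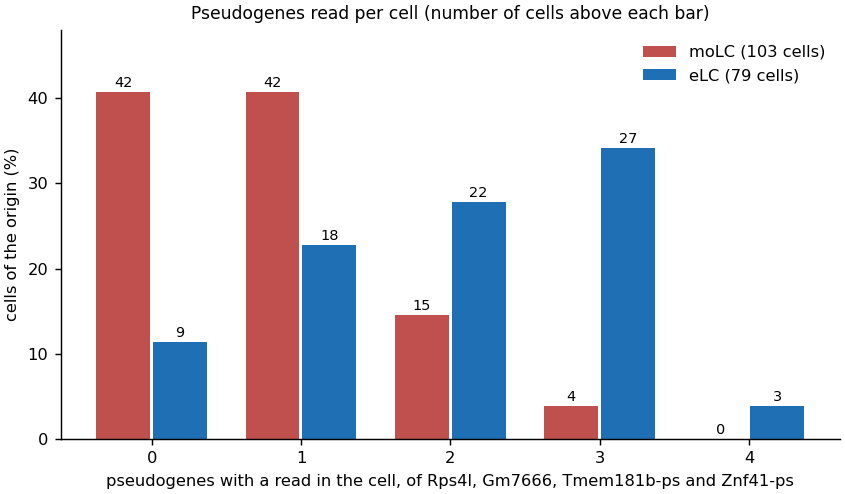
Cells of each origin (y axis, % of its cells; number of cells above the bars) by how many of Rps4l, Gm7666, Tmem181b-ps and Znf41-ps had a read (x axis). In moLCs 42 cells (40.8%) had none, and in eLCs 9 cells (11.4%) did.

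Annotated pseudogenes as a class gave the wider background. Of 673 annotated pseudogenes with a read in enough cells, 17 (2.53%) passed the size rule, 12 with more reads in eLCs and 5 with more in moLCs, beside 2.02% over all genes. The median log2 ratio was -0.08 over these pseudogenes and -0.10 over all genes. Besides the 5 described here, Ap3m1-ps, Dynlt1-ps1, Gm10029, Gm1818, Gm6139, Gm6304, Gm8116 and Gm9517 were higher in eLCs, and Gm10557, Gm13339, Gm15467 and Gm21811 in moLCs. These 12 had pooled log2 ratios between -1.97 and 1.58, and 6 of them were larger in size than that of Gm7666. On plate 2, Gm10029 (-3.27, -6.40 to -1.26), Gm9517 (-2.73, -3.46 to -2.07) and Gm6139 (-2.59, -4.56 to -1.09) had larger ratios than Rps4l (-2.43). Their intervals include the value of Rps4l, and moLCs of that plate had only 2 reads of Gm10029 and 4 of Gm6139. Without moLC 80, Rps4l was at -4.49 on plate 2. Just inside the threshold, the weakest of the 3 log2 ratios had a size of 1.12 for Gm8116 and 1.13 for Gm10557, and just outside it the size was 0.98 for Gm12222 and 0.94 for Gm13092.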

How the data were processed

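Single epidermal LCs were index-sorted, and cDNA was made with a Smart-Seq kit and sequenced paired-end at 75 bases. Alignment by the authors was with STAR to mm10, and the deposited table gives reads per gene and cell, without normalization. The counting tool, its handling of reads that match several genes, its use of strand and the annotation are not given in the sources used here, so how reads of overlapping or near-identical genes were divided is unknown. The deposited values were treated like estimated counts, because 9 of them were not whole, and were rounded. Cells with more than 5% of reads on mt- genes were left out, which removed 3 moLCs. Depth was 432614 to 4525429 reads per cell.

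Reads were summed by origin, divided by all reads of those cells and scaled to CPM. Where an origin had 0 reads, 3 were put in its place for the whole group, and the ratio is then a bound. Parents were found with blastn 2.17.0 among GENCODE M21 transcripts, whose sequences are those printed. Named genes were the 5 pseudogenes, their parents and relatives, the 5 nearest read genes on each side, the 3 genes nearest in shares of cells, origin readouts, and pseudogenes past the size rule. Rps4l-ps, Zfp992, Gm10382, Fyb, Tmtc1 and Gm2245 were added after values were seen. The pseudogenes and lists were chosen with earlier results of these data known. The size rule was tested on simulated counts. Python 3.11.15, numpy 2.4.6, pandas 2.3.3, scipy 1.17.1, matplotlib 3.10.9, and edgeR 4.0.16 in R 4.3.3 (TMM factors) were used. The alternatives were each plate alone, all 185 cells, at least 1000 genes per cell, thinning, at least 10 reads, equal weight per cell, TMM factors, library sizes that leave out the 50 most read genes, each cell left out in turn, and other limits of the size rule. The study's rank-sum test was not used, as it treats single cells as replicates. No doublet caller was run, since cells were sorted singly.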

Additional observations from a re-analysis of the deposited data

How the results depend on the processing

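All 50 alternatives kept the direction of the log2 ratios, and 53 of 60 kept the share of cells within its interval. The other 7 were the limit of at least 10 reads, with 4.85% of moLCs and 15.2% of eLCs for Gm7666, 6.80% and 0% for Gm43752, 7.77% and 20.3% for Tmem181b-ps, and 15.5% of moLCs for Znf41-ps. The log2 ratio of Rps4l was -5.68 on plate 1, -2.43 on plate 2, -3.65 after thinning, -3.72 with equal weight per cell, -3.42 with TMM factors and -3.45 without the 50 genes with the most reads. That of Tmem181b-ps was -1.91 on plate 1 and -1.82 on plate 2, and that of Znf41-ps was -1.61 on plate 1. Leaving out 1 cell at a time gave -5.20 to -3.42 for Rps4l, -1.55 to -1.36 for Gm7666, 4.90 to 5.42 for Gm43752, -2.74 to -1.96 for Tmem181b-ps and -2.37 to -1.79 for Znf41-ps. The lowest values were those without moLC 80, moLC 15, moLC 64, a moLC of plate 2 with 118 reads, and moLC 84. With the least share of cells put at 10%, the size rule called 479 of 9606 genes (4.99%), with all 5 pseudogenes. At 50% it called 23 of 3649 (0.630%), among them Rps4l and Gm7666. The other pseudogenes were read in too few cells to be tested at 50%. With a fold of at least 4 it called 12 of 6522 (0.184%), among them Rps4l and Gm43752. These limits change how many genes can pass. With TMM factors, which shifted log2 ratios by 0.10 towards moLCs, the rule called 133 of 6522 genes (2.04%), with all 5 pseudogenes. Of the 133, 71 were higher in moLCs and 62 in eLCs, against 53 and 79 with total reads. At 10 reads or more, joint detections over the 6 pairs were 36 against 35.9 in eLCs and 4 against 3.26 in moLCs. Both ratios stayed within the counting intervals of the main ones, but 4 detections are few. Single pairs changed. Tmem181b-ps and Znf41-ps were together in 0 moLCs against 1.24. In eLCs, Gm7666 and Tmem181b-ps were together in 2 against 2.45, and Rps4l and Tmem181b-ps in 11 against 8.53. The causes of these shifts were not tested. No paired analysis was possible because the labels pair no cell of one origin with a cell of the other. A difference between mice cannot be seen with no mouse named, and intervals cover counting error only.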
